A study of Mus musculus with 15 samples.

Results

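Long noncoding RNAs are transcripts that carry no long open reading frame, and many act in the nucleus, where they stay with chromatin or with bodies that hold RNA-processing proteins. The 8 described here (Malat1, Neat1, Miat, Rmst, Sox2ot, Snhg11, Pantr1 and Dlx6os1) are known from neural tissue and were chosen by symbol from the 55367 genes of the count table. Each was compared between 2 sorted cell groups of the mouse embryo's medial cortex.

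The series title speaks of superior and inferior neural progenitors. All 12 bulk libraries came from C57BL/6 medial cortex at stage E11.5 and carried no stated mutation, transgene or treatment. The first group, AnnexinV-positive, held 6 libraries of cells that bound annexin V, a protein that attaches to phosphatidylserine on the outer membrane face, and excluded propidium iodide (PI), which enters cells with a broken membrane. The second, double-negative, held 6 libraries of cells without either stain, and 3 further samples without a sort label were not analysed here. The library method was a modified smart-seq2, in which cDNA of whole transcripts is amplified from little RNA. Separate embryos or cultures are not stated for the replicates. The p-values therefore measure only the spread between these samples, which may be technical.

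Malat1 is a very abundant nuclear RNA of splicing-factor domains called nuclear speckles, and Neat1 is the scaffold of the neighbouring bodies called paraspeckles. Miat (also Gomafu) forms separate nuclear foci in neurons, Rmst was found to partner SOX2 in human neural stem cells, and Sox2ot spans the Sox2 gene. Pantr1 starts beside the neural transcription factor gene Pou3f3, Dlx6os1 (also Evf2) runs antisense to the homeobox gene Dlx6 in the ventral forebrain, and Snhg11 is named as a host gene of small nucleolar RNAs.

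All positions are on GRCm38. Malat1 lies at chr19:5795690-5802672 and Neat1 at chr19:5824708-5845478, both on the minus strand with 22035 bases between them. Miat lies at chr5:112213228-112229395 on the minus strand, Rmst at chr10:92071037-92165170 on the minus strand and Sox2ot at chr3:34104270-34682619 on the plus strand. Pantr1 lies at chr1:42590782-42694842 on the minus strand and starts 925 bases from Pou3f3. Dlx6os1 lies at chr6:6820189-6871592 on the minus strand, with Dlx6 inside it on the other strand and Dlx5 a further 6212 bases away. Snhg11 lies at chr2:158375638-158386145 on the plus strand and is typed as protein coding in the annotation, GENCODE M21, while the others are typed as lincRNA, processed transcript or antisense. The strand setting of the counting is not given in the sources used here. Reads of Dlx6os1 and Dlx6, or of other genes that overlap a member on the other strand, could thus be shared. For a gene on the same strand, such as Sox2 inside Sox2ot, no strand setting would separate reads where exons overlap.

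A few stretches show the elements for which some of these RNAs are known. The 3′ part of the longest Malat1 transcript, chr19:5795920-5796077 on the minus strand, is shown because it holds the end of the mature RNA: capitals mark 2 U-rich motifs, written as T, and the genome-encoded A-rich tract that pairs with them in a triple helix. The tract includes 12 adenines in a row, the longest such run in that transcript, and the small tRNA-like RNA that is cut off follows it.
Malat1 3-prime stretch: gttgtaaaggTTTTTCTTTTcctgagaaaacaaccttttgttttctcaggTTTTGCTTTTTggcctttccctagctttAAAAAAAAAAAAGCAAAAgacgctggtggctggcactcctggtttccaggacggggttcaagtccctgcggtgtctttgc

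The Miat stretch, chr5:112217309-112217459 on the minus strand, is shown for the repeats for which this RNA is known: capitals mark 4 copies of ACTAAC, which resembles an intron's branch point and is bound by splicing factors such as Sf1. On the transcript strand, the longest Miat transcript, of 9163 bases, held 11 copies. Of the 7040 annotated transcripts of at least 5000 bases, 0.185% held as many, and the median was 1.
Miat repeat stretch: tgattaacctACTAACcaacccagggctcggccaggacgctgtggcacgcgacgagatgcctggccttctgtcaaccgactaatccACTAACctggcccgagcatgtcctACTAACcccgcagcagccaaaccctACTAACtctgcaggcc

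RefSeq on GRCm38.p6 gives 2 promoters of Dlx6os1, shown because this RNA and its Dlx neighbours were counted in few AnnexinV-positive libraries or none. They lie at chr6:6869484-6869783 and chr6:6861634-6861933, both on the minus strand, and capitals mark TAATTA, a core that Dlx and many other homeodomain proteins bind and that reads the same on both strands. The first held 2 copies and the second 1. At least 1 copy was in 5.29% of the 32851 promoters of the table and at least 2 were in 0.435%. In all, 4 members had a promoter in the table, and the other 3 of these 5 promoters held 0 copies.
Dlx6os1 promoter 1: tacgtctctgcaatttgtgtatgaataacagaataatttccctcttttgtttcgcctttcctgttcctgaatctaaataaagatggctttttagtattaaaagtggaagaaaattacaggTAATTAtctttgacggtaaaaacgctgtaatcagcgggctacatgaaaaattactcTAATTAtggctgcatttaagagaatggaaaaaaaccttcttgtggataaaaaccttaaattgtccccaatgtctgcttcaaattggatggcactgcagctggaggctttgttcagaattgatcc
Dlx6os1 promoter 2: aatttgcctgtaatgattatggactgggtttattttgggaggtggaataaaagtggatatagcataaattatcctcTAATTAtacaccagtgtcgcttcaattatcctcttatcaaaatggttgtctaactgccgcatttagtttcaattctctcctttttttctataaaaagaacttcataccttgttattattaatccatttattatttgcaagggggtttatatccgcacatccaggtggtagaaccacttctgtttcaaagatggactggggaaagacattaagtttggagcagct

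Rmst also contains microRNA genes, among them Mir135a-2. Its mature product, at chr10:92072141-92072163 on the minus strand, is shown with the seed, bases 2 to 8, in capitals. The count table measures the host gene and not this product.
mmu-miR-135a-5p: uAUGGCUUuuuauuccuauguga

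Total counts were 190700 to 444400 in AnnexinV-positive libraries, against 88200 to 329800 in double-negative ones, so a single count was worth 2.41 to 15.4 counts per 1000000 (CPM, scaled with TMM factors here and below). Haemoglobin transcripts made up 12%, 30.8% and 12.3% of double-negative libraries 1, 2 and 3, while no other library held more than 0.00964%. The number of genes with a count was 9166 to 10110 in AnnexinV-positive libraries, against 6587 to 8903 in double-negative ones. Mitochondrially encoded genes took 2.38% to 3.04% in AnnexinV-positive libraries, against 1.11% to 3.94% in double-negative ones. Summed over a list of 20 neuron markers, the level was 321 to 1365 CPM in AnnexinV-positive libraries, against 2321 to 5780 CPM in double-negative ones, and of these markers Nefl and Nefm had 0 counts in every AnnexinV-positive library, with 12 and 15 counts in all double-negative libraries together. Of the 12 neuron markers tested, 7 were lower (Dcx, Stmn2, Map2, Ina, Elavl3, Myt1l and Tbr1) and 0 higher in AnnexinV-positive cells in edgeR, with 10 lower and 0 higher at an unadjusted p under 0.05 and 0 higher in DESeq2 or limma with voom. Over a list of 16 progenitor markers the sums were 3054 to 3847 CPM in AnnexinV-positive libraries, against 1367 to 3081 CPM in double-negative ones, so both groups held the markers of the dissected neural tissue. Of the 15 of these that were tested, 1, Hmga2, was higher and 0 were lower in edgeR. At an unadjusted p under 0.05 in edgeR 7 were higher and 0 lower, and DESeq2 and limma with voom each called Hmga2 alone. The median log2 fold change of the 15 was 0.63, against 0.06 over all tested genes, with 11 positive and 4 negative values. The summed markers of vessels, mesenchyme and macrophages reached 418, 867 and 729 CPM in AnnexinV-positive libraries and 7.10, 43.5 and 150 CPM in double-negative libraries, each from genes too sparse to test.

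The comparison asks which of these RNAs go with annexin V binding while the membrane is still closed. Of the 8, 4 (Malat1, Miat, Sox2ot and Pantr1) had enough counts for edgeR's test over all genes, and 1 passed it: Malat1 was lower in AnnexinV-positive cells. Across the table, 1.87% of the 3800 tested genes passed (71 genes), with 1.47% lower and 0.395% higher. All 4 tested members had a negative log2 fold change, against 1774 of all 3800 genes, but 3 of the 4 did not pass and Pantr1 turned positive with total counts as the scaling. Neat1, Rmst, Snhg11 and Dlx6os1 were below the filter on low counts and are given by their counts, with an exact two-sided permutation test over the 924 ways to split the 12 libraries. The smallest p this design allows is 0.00216, and these p-values are not adjusted.

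**Figure D1:**
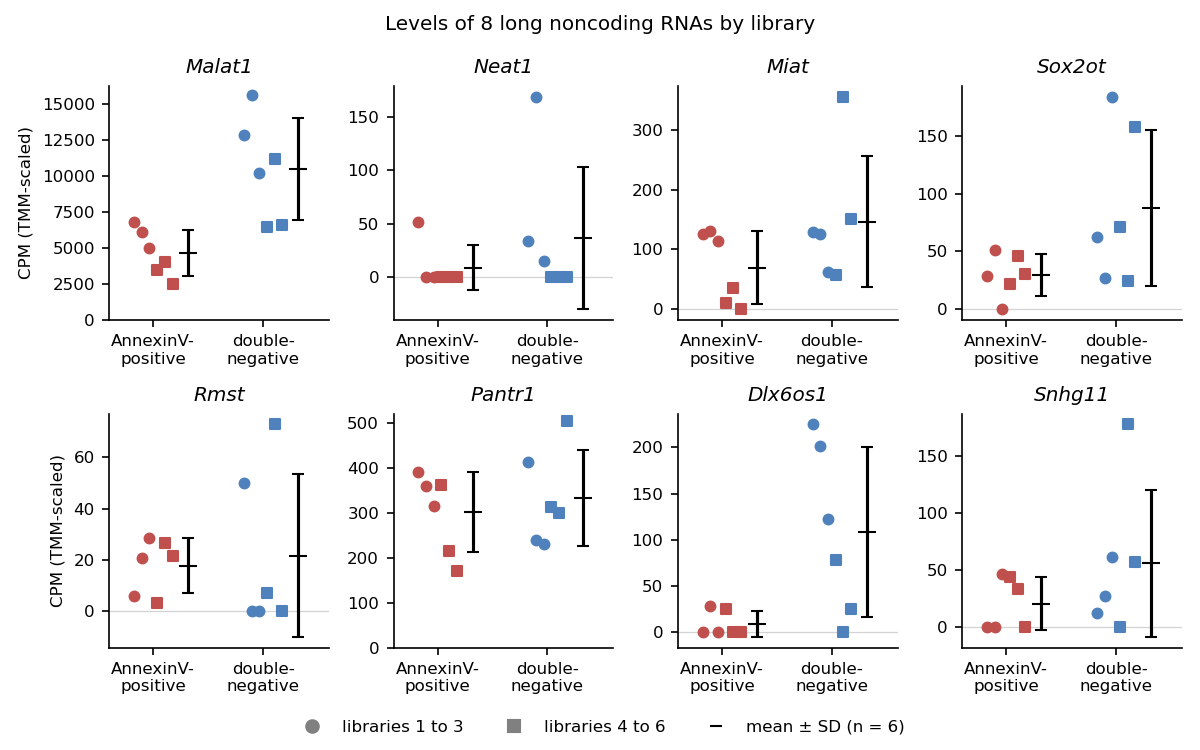
Level of each member in CPM (TMM-scaled, linear axis) in the 6 AnnexinV-positive and 6 double-negative libraries. Circles are libraries 1 to 3, squares are libraries 4 to 6, and the bar beside each group is the mean ± SD. Malat1 averaged 4642 CPM in AnnexinV-positive libraries, against 10470 CPM in double-negative ones, and the groups of every member overlap.

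Malat1 ranged from 2501 to 6802 CPM with a median of 4499 CPM in AnnexinV-positive libraries. It ranged from 6481 to 15600 CPM with a median of 10700 CPM in double-negative libraries. Every AnnexinV-positive library lay under the double-negative median, and the groups overlapped only in that AnnexinV-positive library 1, at 6802 CPM, was above double-negative libraries 4 and 6, at 6481 and 6555 CPM. The means were 4642 ± 1625 CPM in AnnexinV-positive libraries, against 10470 ± 3568 CPM in double-negative ones (SD, n = 6 each). The log2 fold change was −1.18 (SE 0.26, 95% interval −1.75 to −0.60), or 0.443 times the double-negative level, with an adjusted p of 0.0117 in edgeR. An exact two-sided permutation test on log2 CPM gave p = 0.00649. In bulk libraries like these, fewer cells of a Malat1-rich type and less Malat1 RNA per cell cannot be told apart.

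Malat1 had the fourth highest CPM of the tested genes, not corrected for length. The deposited counts summed to 8512 in AnnexinV-positive libraries, against 10724 in double-negative ones. No molecular identifiers are mentioned, so the number of molecules behind these counts is not known. The Malat1 call rested on how libraries were scaled and on which were used. With total counts in place of TMM factors the log2 fold change was −0.92 (edgeR adjusted p = 0.0850), where the median over all genes was 0.28 instead of 0.06. It was −0.75 (edgeR adjusted p = 0.238) without double-negative libraries 1 to 3, which held haemoglobin, and −1.15 (edgeR adjusted p = 0.0680) without double-negative libraries 3 and 5. The first of these fits kept AnnexinV-positive libraries 1 to 3. Mean Malat1 was higher in libraries 1 to 3 than in 4 to 6 in both groups. The means were 5958 against 3326 CPM in AnnexinV-positive libraries and 12880 against 8066 CPM in double-negative ones. With a term for libraries 1 to 3 or 4 to 6 added to the fit of all 12 libraries, the log2 fold change was −1.195 (edgeR adjusted p = 0.000753). With haemoglobin and rRNA genes left out of all libraries it was −1.18 (edgeR adjusted p = 0.0114), and leaving out any 1 library kept the call. The neuron marker sums and the number of genes detected separated the same groups of libraries, and their part in the Malat1 difference was not tested.

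The labels number the libraries 1 to 6 in each group, and libraries 1 to 3 and 4 to 6 were also taken apart because haemoglobin separated them. Within libraries 1 to 3, Malat1 had 6802, 6077 and 4993 CPM in AnnexinV-positive libraries, against 12820, 15600 and 10230 CPM in double-negative ones. Within libraries 4 to 6 it had 3471, 4005 and 2501 CPM in AnnexinV-positive libraries, against 6481, 11160 and 6555 CPM in double-negative ones. The groups thus did not overlap within either set, with AnnexinV-positive lower in both, which held for 2.34% of the tested genes (89 genes). The log2 fold change was −1.06 (SE 0.28, edgeR adjusted p = 0.0928) within libraries 1 to 3 and −1.29 (SE 0.30, edgeR adjusted p = 0.0798) within libraries 4 to 6. Neither set passed alone, and the difference between the sets was −0.16 (SE 0.38, edgeR adjusted p = 0.998). Over all 12 libraries, groups without any overlap were found for 2.58% of the tested genes, and Malat1 was not among them.

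**Figure D2:**
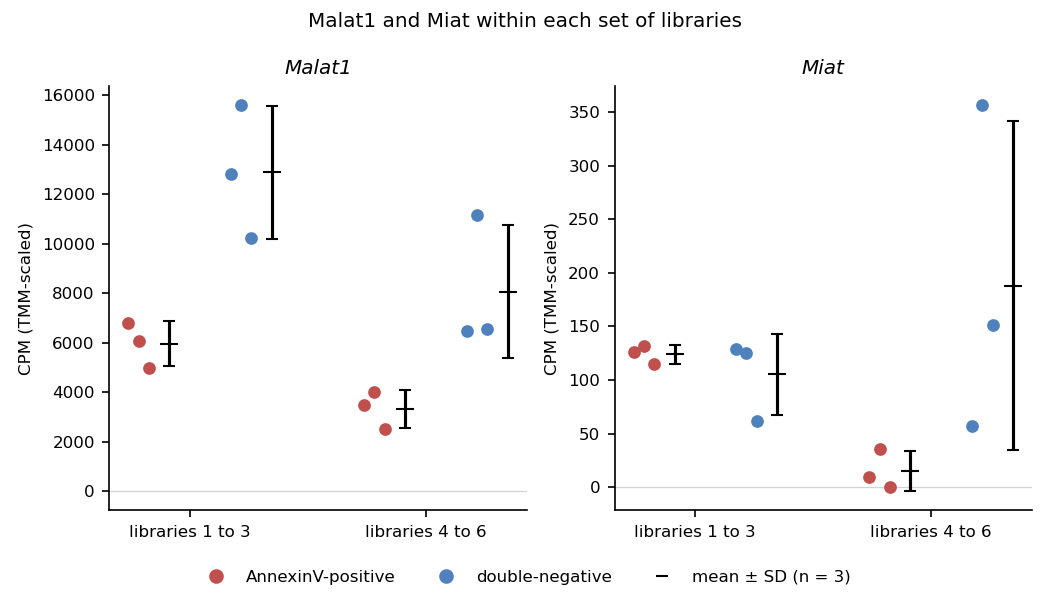
Level of Malat1 (left) and Miat (right) in CPM in libraries 1 to 3 and 4 to 6, with the mean ± SD of the 3 libraries beside the points, AnnexinV-positive in red and double-negative in blue. For Malat1 the red points lie under the blue ones in both sets, and for Miat in libraries 4 to 6 alone.

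Levels within a library can be set side by side without a scaling factor. Per kilobase of merged exons, Malat1 was 6.11 to 11.9 times as high as Pantr1 in AnnexinV-positive libraries and 8.31 to 41.6 times as high in double-negative libraries. Apart from double-negative library 6, which had the lowest ratio of its group and lay inside the AnnexinV-positive range, the double-negative libraries had ratios of at least 13.2. Per kilobase, Malat1 had 665 ± 233 CPM in AnnexinV-positive libraries, against 1500 ± 511 CPM in double-negative ones (SD, n = 6 each), the highest of the 8 in both groups.

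The genes whose profile over the 12 libraries was most like that of Malat1 were Fnbp1l, which codes for a membrane-bending adaptor of actin assembly, Hsf2, a heat shock transcription factor gene, and Mex3a, which codes for an RNA-binding protein. Likeness was the mean absolute difference of centred log2 CPM, and it was 0.277, 0.284 and 0.307 for these 3 genes, against a median of 0.969 over 3616 genes. The log2 fold change of Hsf2 was −1.18 (edgeR adjusted p = 0.0251), that of Fnbp1l was −1.23 (0.0893 in edgeR) and that of Mex3a was −0.98 (0.139 in edgeR). These genes were picked as the closest over the same 12 libraries, with the group difference included. Small distances and fold changes near that of Malat1 thus follow from the choice. Of 20 tested genes for nuclear speckle proteins, 0 passed in edgeR, 0 in DESeq2 and 0 in limma with voom, and 2 had an unadjusted p under 0.05 in edgeR. Their median log2 fold change was 0.05 against 0.06 over all genes. The smallest p of that list belonged to Pnn (log2 fold change 0.89, edgeR adjusted p = 0.127), Rnps1 (0.63, 0.312) and Srrm1 (0.45, 0.378), which code for splicing proteins.

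Neat1 was hardly counted. AnnexinV-positive library 1 had 9 counts and the other AnnexinV-positive libraries 0, while double-negative libraries 1, 2 and 3 had 8, 31 and 1 counts and the others 0. All counts thus fell in libraries 1 to 3, and a count of 0 allows up to 7.23 to 24.3 CPM in the libraries without a count. The groups overlapped, and the exact permutation test gave p = 0.424. Of the list of paraspeckle proteins, 14 of 20 were tested and 0 passed in edgeR, DESeq2 or limma with voom, 1 had an unadjusted p under 0.05 in edgeR, and the median log2 fold change was 0.22. The smallest p were those of Rbm7 (log2 fold change 1.64, edgeR adjusted p = 0.195), Rbmx (−0.65, 0.334) and Tardbp (0.65, 0.378), all genes for RNA-binding proteins.

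Miat ranged from 0 to 132 CPM with a median of 75.4 CPM in AnnexinV-positive libraries. It ranged from 56.8 to 356 CPM with a median of 127 CPM in double-negative libraries. The groups overlapped, with a log2 fold change of −1.10 (SE 0.68, 95% interval −2.60 to 0.41, edgeR adjusted p = 0.460).

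Taken by set, Miat in libraries 1 to 3 had 124 ± 8.76 CPM in AnnexinV-positive libraries, against 105 ± 38.0 CPM in double-negative ones (SD, n = 3 each). In libraries 4 to 6 it had 9.46, 36.2 and 0 CPM in AnnexinV-positive libraries, against 56.8, 356 and 151 CPM in double-negative ones. These groups did not overlap, as was so, with AnnexinV-positive lower, for 8.42% of the tested genes in that set. The log2 fold change there was −3.53 (SE 1.04, edgeR adjusted p = 0.184), against 0.24 (SE 0.55, edgeR adjusted p = 0.926) in libraries 1 to 3. The difference between the sets was −3.71 (SE 1.17), and edgeR's adjusted p was 0.386 (0.00435 unadjusted). That test was passed by 0.0789% of the genes (Fth1, Gpx1 and Robo2, named after their values were seen), and no member was among these 3. Of the genes for proteins that bind Miat or Rmst, 4 of 5 were tested (Sf1, Qk, Sox2 and Hnrnpa2b1), 0 passed in edgeR, DESeq2 or limma with voom, and 0 had an unadjusted p under 0.05 in edgeR. The splicing factor genes Sf1 and Qk had log2 fold changes of 0.18 and 0.25 (edgeR adjusted p = 0.860 and 0.701).

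Sox2ot ranged from 0 to 51.7 CPM with a median of 29.6 CPM in AnnexinV-positive libraries. It ranged from 24.3 to 184 CPM with a median of 66.7 CPM in double-negative libraries. The groups overlapped, although every AnnexinV-positive library lay under the double-negative median. The log2 fold change of −1.50 (SE 0.72, 95% interval −3.11 to 0.11) had the largest size of the 4 tested members and did not pass (edgeR adjusted p = 0.316). Sox2, the progenitor transcription factor gene inside Sox2ot, averaged 113 ± 34.9 CPM in AnnexinV-positive libraries, against 161 ± 62.4 CPM in double-negative ones (SD, n = 6 each), with a log2 fold change of −0.50 (edgeR adjusted p = 0.592).

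Rmst had at least 1 count in all 6 AnnexinV-positive libraries and in 3 double-negative libraries. The deposited counts were 1, 8, 8, 1, 11 and 7.08 in AnnexinV-positive libraries 1 to 6 and 12, 0, 0, 1, 9 and 0 in double-negative libraries 1 to 6. The range in CPM was 3.15 to 28.7 in AnnexinV-positive libraries, against 0 to 72.9 in double-negative ones, so the AnnexinV-positive range lay inside the double-negative one. The difference of mean log2 CPM was 0.35 (exact permutation p = 0.602), and its sign was negative when DESeq2 or edgeR without a filter was used. A single count was worth 2.41 to 5.74 CPM in AnnexinV-positive libraries, against 3.6 to 15.4 CPM in double-negative ones, and the part of this depth in where so low a gene was seen was not tested.

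Pantr1 ranged from 171 to 390 CPM with a median of 337 CPM in AnnexinV-positive libraries. It ranged from 230 to 503 CPM with a median of 306 CPM in double-negative libraries. The groups overlapped almost fully, with means of 302 ± 89.1 CPM in AnnexinV-positive libraries, against 333 ± 106 CPM in double-negative ones (SD, n = 6 each). The log2 fold change was −0.16 (SE 0.29, edgeR adjusted p = 0.826), and its 95% interval ran from −0.81 to 0.49. Its sign turned with total counts as the scaling (0.093) and without double-negative library 6 (0.0068). Pou3f3, beside it, averaged 213 ± 105 CPM in AnnexinV-positive libraries, against 176 ± 31.3 CPM in double-negative ones (SD, n = 6 each), with a log2 fold change of 0.27 (edgeR adjusted p = 0.758).

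Dlx6os1 was seen mainly in double-negative libraries. The counts were 0, 11, 0, 8, 0 and 0 in AnnexinV-positive libraries 1 to 6 and 54, 37, 8, 11, 0 and 7 in double-negative libraries 1 to 6, or 19 against 117 in all. At least 1 count was present in 2 AnnexinV-positive and 5 double-negative libraries, and the groups overlapped. The means were 8.94 ± 13.9 CPM in AnnexinV-positive libraries, against 109 ± 91.7 CPM in double-negative ones (SD, n = 6 each). The difference of mean log2 CPM was −2.46 (exact permutation p = 0.0433), the only one of the 4 untested members under 0.05, without adjustment for the other members.

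This depended on the libraries used. Tests over larger sets of genes, which take in such low genes, gave −3.57 in DESeq2 (adjusted p = 0.0352) and −3.29 in edgeR without a filter (adjusted p = 0.0101). Leaving out 1 library at a time, the exact permutation p lay between 0.00866 and 0.0758 and missed 0.05 in 8 of 12 cases, the exceptions being those without AnnexinV-positive library 2 or 4 or double-negative library 5 or 6. Without double-negative libraries 1 to 3 the difference was −1.15 (exact permutation p = 0.345). Within libraries 1 to 3 the groups did not overlap, with 9.47 ± 16.4 CPM in AnnexinV-positive libraries, against 183 ± 53.5 CPM in double-negative ones (SD, n = 3 each), and within libraries 4 to 6 they overlapped. In libraries 1 to 3, 8.63% of the 3800 tested genes, of which Dlx6os1 is not one, also had AnnexinV-positive lower without overlap.

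The Dlx neighbours of Dlx6os1 were counted in double-negative libraries alone. Dlx5 had 0 counts in every AnnexinV-positive library and 51, 8, 14, 17, 0 and 0 counts in double-negative libraries 1 to 6. Dlx6 had 0 counts in every AnnexinV-positive library and 21, 3, 2, 0, 0 and 2 counts in double-negative libraries 1 to 6. A count of 0 allows up to 7.23 to 17.2 CPM per AnnexinV-positive library, while Dlx5 reached 215 CPM in double-negative library 3. Gad2, which makes the inhibitory transmitter GABA, was the tested gene of the ventral forebrain list with the smallest p, with a log2 fold change of −3.03 (SE 1.01, edgeR adjusted p = 0.155). Of the 17 genes of that list 2 were tested and 0 passed in edgeR, where Gad2 alone had an unadjusted p under 0.05, and the second, Sp8, had a log2 fold change of −0.17 (edgeR adjusted p = 0.916). DESeq2, which tested more of the list, called 3 of its genes lower (Dlx5, Gad1 and Isl1, named after their values were seen), and limma with voom called Gad2. Dlx1 and Dlx2 of that list, also named after their values were seen, had counts in both groups. Dlx1 had 26 and 14 counts in AnnexinV-positive libraries 2 and 4, and Dlx2 had 32 and 9 in libraries 2 and 3. Both had 0 in the other AnnexinV-positive libraries. In double-negative libraries Dlx1 had 1 to 17 counts and Dlx2 had 2 to 19. Summed over the list, the level was 91.9 to 452 CPM in AnnexinV-positive libraries, against 227 to 1920 CPM in double-negative ones, and the part of this difference in the Dlx6os1 counts was not tested.

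**Figure D3:**
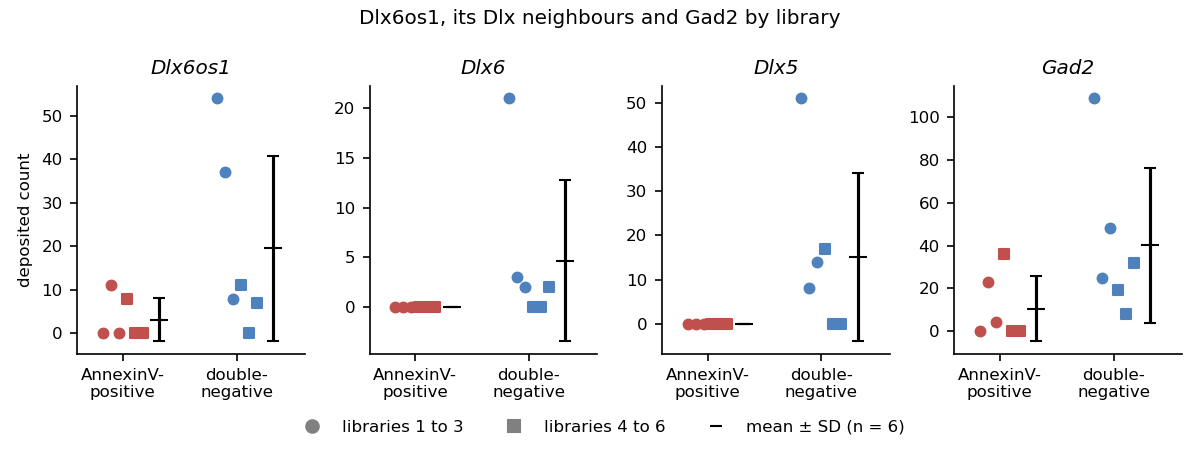
Deposited counts of Dlx6os1, Dlx6, Dlx5 and Gad2 in each library, with the mean ± SD of 6 libraries, circles for libraries 1 to 3 and squares for 4 to 6. Dlx6 and Dlx5 have 0 counts in all 6 AnnexinV-positive libraries, and the highest count of each gene is in double-negative library 1.

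Snhg11 had 0, 0, 13, 14, 14 and 0 counts in AnnexinV-positive libraries 1 to 6 and 3, 5, 4, 0, 22 and 16 counts in double-negative libraries 1 to 6. The groups overlapped, and the difference of mean log2 CPM was −1.05 (exact permutation p = 0.242). Of 17 other entries for host genes of small nucleolar RNAs found in the table, 3 were tested, 0 passed in edgeR, DESeq2 or limma with voom, and 1 had an unadjusted p under 0.05 in edgeR. These were Snhg14 (log2 fold change −1.93, edgeR adjusted p = 0.102), Snhg1 (−0.51, 0.688) and Gas5 (0.22, 0.815), which is also among the further RNAs given next.

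Among 43 further long noncoding RNAs of the table, 14 were tested. Of these, 2 were lower in AnnexinV-positive cells, against 1.47% of all tested genes, 0 were higher and 12 did not pass. At an unadjusted p under 0.05 in edgeR 4 were lower and 0 higher, and with adjustment 3 were lower and 0 higher in DESeq2. Their median log2 fold change was −0.35 against 0.06 over all genes, with 9 negative and 5 positive values. Meg3, an imprinted RNA expressed from the maternal allele, had 19.3 to 86.1 CPM in AnnexinV-positive libraries, against 163 to 1044 CPM in double-negative ones, a log2 fold change of −3.34 (SE 0.48, edgeR adjusted p = 0.000234). Mir124a-1hg, a host gene of the neuronal microRNA miR-124, had 0 to 82.0 CPM in AnnexinV-positive libraries, against 105 to 430 CPM in double-negative ones, a log2 fold change of −2.77 (SE 0.68, edgeR adjusted p = 0.0295). Neither gene's groups overlapped, as was so for 2.58% of all tested genes. The smaller sums of neuron markers in AnnexinV-positive libraries, given above, went with both differences, and their part was not tested.

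**Figure D4:**
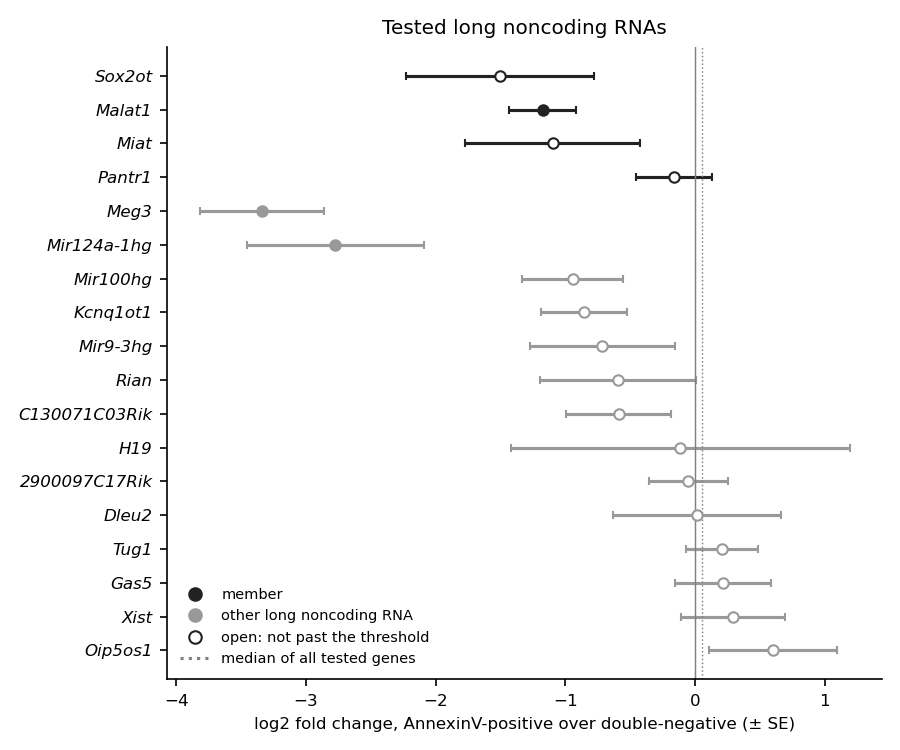
Log2 fold change, AnnexinV-positive over double-negative, with its SE for the 4 tested members (black) and the 14 other tested long noncoding RNAs (grey). Filled points passed the threshold: Malat1 at −1.18, Meg3 at −3.34 and Mir124a-1hg at −2.77. The dotted line is the median of all tested genes, 0.06.

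Levels of different genes can be set beside each other per kilobase of merged exons. In AnnexinV-positive libraries the order was Malat1 (665 CPM per kilobase), Pantr1 (67.8), Miat (7.50), Sox2ot (2.57), Snhg11 (2.43), Rmst (2.38), Dlx6os1 (1.73) and Neat1 (0.415). In double-negative libraries it was Malat1 (1500 CPM per kilobase), Pantr1 (74.7), Dlx6os1 (21), Miat (15.8), Sox2ot (7.58), Snhg11 (6.59), Rmst (2.92) and Neat1 (1.74). Malat1 lay above Pantr1 in every library, and Pantr1 lay above the rest, whose ranges overlapped each other in both groups. Under Pantr1 the order changed in the authors' per-length score of the second deposited table. There Rmst (34.9), Sox2ot (18.8) and Miat (8.17) came next in AnnexinV-positive libraries, and Sox2ot (39.5), Dlx6os1 (28.8) and Miat (27.2) in double-negative ones. Neat1 was the lowest of the 8 by both measures in both groups.

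The table named TPM follows each gene's count divided by its length less a fixed number of bases, 181 to 236 by library, so the ratio of both deposited tables returns a length for each gene in each library. On genes with a single annotated transcript and at least 10 counts, the returned length matched the annotation with a median error of 0.0038% to 1.2% per library. The error was largest in AnnexinV-positive library 6. All genes of this check were longer than the lengths returned for Malat1 and Pantr1, given below, so the match was not checked at such short lengths. For Miat it was 8743 to 9195 bases in every library with a count but one, close to the annotated 8758 and 9163 bases, and in double-negative library 5, which had the highest Miat level, it was 2934 bases. For Neat1 it was 20737 bases in AnnexinV-positive library 1 and 20729, 5343 and 3002 bases in double-negative libraries 1, 2 and 3. The annotation has a 20771-base Neat1 transcript, the long form that paraspeckles need, and a 3004-base one. The 9 counts of AnnexinV-positive library 1 and the 8 of double-negative library 1 were thus divided by a length near that of the long form.

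For Malat1 the returned length was 678 to 838 bases in all 12 libraries, although the main transcript has 6983 bases. The annotation adds 3 short transcripts of 485, 556 and 656 bases, and no single annotated transcript has the returned length. The deposited count of Malat1 was not whole in any of the 12 libraries. With the returned length, an alternative added after seeing the data, Malat1 would reach 5956 CPM per kilobase in AnnexinV-positive libraries, against 13160 CPM per kilobase in double-negative ones. The values with merged exons, 665 and 1500 CPM per kilobase, are thus the lower reading for Malat1. Pantr1 also had a short returned length, 520 to 640 bases, against 4458 bases of merged exons. By the second table Malat1 was 6.65 to 13.6 times as high as Pantr1 in AnnexinV-positive libraries. In double-negative libraries it was 8.33 to 44.5 times as high, so its lead over Pantr1 was close to that per kilobase of merged exons. In the second table, rescaled to a common total without TMM factors, the Malat1 log2 fold change was −0.64 (limma adjusted p = 0.133). There 154 genes were higher and 18 lower, against 15 higher and 56 lower in the count table with TMM factors and edgeR. Total counts as the scaling of the count table gave −0.92 in edgeR, with 52 genes higher and 32 lower. The parts of scaling, test and length in these changes were not tested. The returned lengths of Malat1 overlapped between the groups, with the lowest, 678 bases, in AnnexinV-positive library 6 and the highest, 838 bases, in double-negative library 3.

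**Figure D5:**
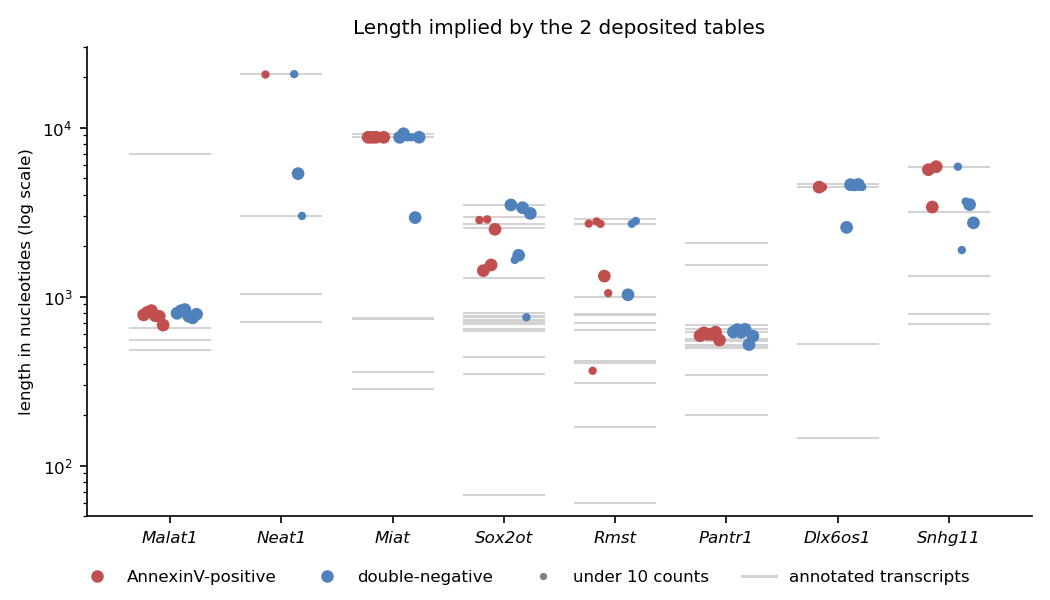
Length in bases, on a log axis, returned by the ratio of both deposited tables for each member and library (points, AnnexinV-positive left and double-negative right, small where there were under 10 counts), with annotated transcript lengths as grey lines. Malat1 sits between 678 and 838 bases in every library, far under its 6983-base transcript.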

How the data were processed

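The authors deposited a table named raw counts, whose values are estimated counts per gene symbol, since 8.84% of the nonzero values were not whole. A second table the authors deposited is named TPM, but its columns do not sum to 1000000, so it was treated as a per-length score. The builds GRCm38 and mm10 and the tools STAR, Trimmomatic, Seurat 4 and featureCounts are listed per the submitters' processing notes. Which tool gave fractional counts, with which annotation and strand setting, is not given in the sources used here. These values were rounded to whole numbers before the count tests.

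Counts were tested by quasi-likelihood in edgeR 4.0.16 under R 4.3.3 (robust, two-sided, TMM scaling) with filterByExpr (minimum count 10, minimum total 15) and Benjamini-Hochberg adjustment over 3800 genes at a threshold of 0.05. A positive log2 fold change means higher in AnnexinV-positive cells. The SE was taken as its size over the root of the F statistic. Their 95% intervals use 10 degrees of freedom. Log2 CPM has a prior count of 2. The second table was rescaled to a common total and given a pseudocount of 1. A zero count was given an upper limit of 3 counts. These limits cover counting error only, since no molecular identifiers are mentioned, whereas the intervals come from the edgeR fit and hold the spread between libraries. Positions, transcript lengths and the Malat1 and Miat stretches come from GENCODE M21, and promoters and the microRNA from RefSeq tables. Of 55367 symbols, 53292 were in GENCODE M21. The symbol Dlx6os1 covers 2 annotated gene entries, which the table does not separate.

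Within groups, pairs of libraries differed by more than sampling noise, with 4.44 to 30.1 for the chi-square statistic over its degrees of freedom. Named genes are all members, the genes of each list that passed, or otherwise up to 3 with the smallest p, and the 3 genes most like a member that passed, where the mean log2 CPM had to reach 5. Genes named beyond that lie next to a member, are markers with 0 counts in a group, or are said to be named after their values were seen. The members and lists were chosen with earlier results of these data known. Alternatives were other scalings, filters, rounding, DESeq2 1.42.0, limma 3.58.1 with voom, the second table, leaving out libraries, separate sets, a set term and a replicate block.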

Additional observations from a re-analysis of the deposited data

Results flagged for a closer look

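Among 16 sets of 6 values (8 members in both groups), 4 had 1 library that stood apart from the other 5 by Dixon's 95% criterion. Its rate of about 1 in 20 holds for normally distributed values and was not checked for sparse counts like these. Where 5 libraries had 0 counts, as for Neat1 in the AnnexinV-positive group, any count in the remaining library meets it. The 4 of 16 can therefore not be set against that rate. Miat was at 356 CPM in double-negative library 5, where the next highest was 151 CPM. Snhg11 was at 178 CPM in the same library, where the next highest was 61.4 CPM. Neat1 was at 51.7 CPM in AnnexinV-positive library 1, where the other libraries had 0 counts, and at 169 CPM in double-negative library 2, where the next highest was 33.3 CPM. Without double-negative library 5 the Miat log2 fold change was −0.65 (edgeR adjusted p = 0.737).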

How the results depend on the processing

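Depth limited Neat1, Rmst, Snhg11 and Dlx6os1, which had between 0 and 54 counts per library. The Malat1 log2 fold change was negative in all 29 alternatives and passed in 23. These 23 include the 12 fits that left out 1 library, and the exact permutation test, whose p was not adjusted. It did not pass with total counts (−0.92), in the second table (−0.64), within libraries 1 to 3 (−1.06) or 4 to 6 (−1.29), or without double-negative libraries 1 to 3 (−0.75) or 3 and 5 (−1.15). Separate sets and left-out groups hold fewer libraries, and the cause of the other changes was not tested. Pantr1 turned positive with total counts (0.093), in the second table (0.35) and within libraries 1 to 3 (0.30), and ran from −0.25 to 0.0068 when 1 library was left out. Miat turned positive within libraries 1 to 3 (0.24). Rmst turned negative without a filter (−0.11) and in DESeq2 (−0.33). Neat1 has no value within libraries 4 to 6, where it had 0 counts. Without double-negative libraries 1 to 3 it turned positive (0.50). That sign was fixed in advance, since the double-negative libraries left had 0 counts. Dlx6os1 ran from −3.12 to −2.12 when 1 library was left out, and its exact permutation p was over 0.05 within libraries 1 to 3 (−3.64, where the smallest p is 0.1) and 4 to 6 (−1.18) and without double-negative libraries 1 to 3 (−1.15). Sox2ot and Snhg11 stayed negative and did not pass in any alternative.

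The number of genes that passed was 71, and 277 in DESeq2, 237 without a filter, 172 in the second table, 11 within libraries 4 to 6, 46 without double-negative libraries 1 to 3 and 15 without double-negative libraries 3 and 5. It ran from 49 to 126 when 1 library was left out, with 126 without double-negative library 4. The share of higher calls was 21.1% with TMM factors (15 of 71), 43.3% with upper-quartile scaling, 61.9% with total counts and 89.5% in the second table. The set difference was passed by 3 genes, and by 13 without a filter. The median log2 fold change of all genes was 0.28 with total counts.

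The labels give both groups the numbers 1 to 6. Same-numbered libraries deviated from their group means together by r = −0.01 to 0.08. Values this low do not show a pairing by number and cannot exclude one. By this measure each AnnexinV-positive library went best with a double-negative library of its own set, 1 to 3 or 4 to 6. With a replicate block, 71 genes passed, of which 56 were the same genes, and Malat1 had −1.18 (edgeR adjusted p = 0.00136).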
